A study of Mus musculus with 22 samples.

Results

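H3K27ac, the acetyl mark on lysine 27 of histone H3, was described at the genes for the heavy chains of major histocompatibility complex (MHC) class I and at *B2m* in Kupffer cells, macrophages that reside in the liver. The members were all 1000-bp windows assigned in the files to *H2-K1*, *H2-K2*, *H2-D1*, *H2-L*, *H2-T10*, *H2-T22*, *H2-T23*, *H2-Q4*, *H2-M3* or *B2m*, which gave 63 of 96381 windows. They were taken by the gene name in the files. The same 10 names held 91 of the 217456 shorter regions (200 bp) counted by allele in the F1 hybrid. Of the 63 windows, 50 lay on chromosome 17 and 13, all of *B2m*, on chromosome 2, and 37 overlapped the window before them, so that neighbouring windows share tags and are not independent.

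Kupffer cells came from untreated male mice of 8 to 12 weeks, without a transgene, of 3 inbred strains (A/J, BALB/cJ, C57BL/6J) and of CB6F1/J, the hybrid of BALB/cJ and C57BL/6J. Cells were purified from digested livers by flow sorting. H3K27ac ChIP–seq had 3 libraries for each of these inbred strains. ChIP input, with 3 libraries each for A/J and BALB/cJ and 1 for C57BL/6J, is the DNA taken before immunoprecipitation. CB6F1/J had 3 H3K27ac libraries, in which reads spanning a variant were counted for the BALB/cJ and for the C57BL/6J allele. The labels do not state that the libraries came from separate mice, and p-values therefore measure only the spread between these libraries.

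MHC class I molecules are made of a polymorphic heavy chain and the invariant light chain β2-microglobulin, which *B2m* encodes, and they present peptides from inside the cell to CD8+ T cells. *H2-K1*, *H2-D1* and *H2-L* encode classical heavy chains, whereas *H2-Q4*, *H2-T22*, *H2-T23* and *H2-M3* encode non-classical ones with narrower roles. Class I promoters are known to be switched on together by interferon through IRF, NF-κB and NLRC5-dependent elements, and H3K27ac marks active promoters and enhancers. The strains differ in their MHC haplotype, a in A/J, d in BALB/cJ and b in C57BL/6J, and the *H2-L* gene is carried by the a and d haplotypes and not by b. In the mm10 gene models used here *H2-K2* and *H2-T10* are transcribed pseudogenes, and *H2-L* has no gene model. The deposited annotation of the windows marks *H2-T10* as protein-coding instead.

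The promoters of these genes share sequence, which bears on where a read of one copy can be placed. For 7 members RefSeq gives a promoter in build GRCm38.p6 (mm10), and that of *H2-T10* was read from the same genome. *H2-K2* and *H2-L* are named only. The 250 bases before the start site are shown for *B2m*, for the pair *H2-K1* and *H2-D1*, and for the pair *H2-T22* and *H2-T10*, of which only the last had a start window called between strains. Capitals mark matches, on either strand, to the NF-κB type motif GGGNNTTCC, to the interferon-response type motif of GAAA repeated after any 2 bases, to its shorter form GAANNGAAA and to CCAAT.
B2m, chr2:122147437-122147686, plus strand: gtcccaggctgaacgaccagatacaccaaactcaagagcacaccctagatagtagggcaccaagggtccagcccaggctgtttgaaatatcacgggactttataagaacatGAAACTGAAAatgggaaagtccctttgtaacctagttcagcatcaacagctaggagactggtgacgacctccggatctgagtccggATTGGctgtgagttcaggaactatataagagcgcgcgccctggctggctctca
H2-K1, chr17:34000348-34000597, minus strand: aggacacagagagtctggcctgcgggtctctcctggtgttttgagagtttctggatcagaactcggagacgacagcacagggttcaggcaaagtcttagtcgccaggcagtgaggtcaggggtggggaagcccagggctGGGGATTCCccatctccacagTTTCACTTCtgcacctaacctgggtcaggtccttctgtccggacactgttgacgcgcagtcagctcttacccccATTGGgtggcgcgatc
H2-D1, chr17:35262844-35263093, plus strand: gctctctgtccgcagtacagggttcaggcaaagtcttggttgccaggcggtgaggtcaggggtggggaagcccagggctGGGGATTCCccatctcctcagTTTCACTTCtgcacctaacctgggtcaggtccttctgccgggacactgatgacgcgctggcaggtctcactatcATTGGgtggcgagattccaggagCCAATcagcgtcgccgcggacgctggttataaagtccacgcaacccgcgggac
H2-T22, chr17:36042743-36042992, minus strand: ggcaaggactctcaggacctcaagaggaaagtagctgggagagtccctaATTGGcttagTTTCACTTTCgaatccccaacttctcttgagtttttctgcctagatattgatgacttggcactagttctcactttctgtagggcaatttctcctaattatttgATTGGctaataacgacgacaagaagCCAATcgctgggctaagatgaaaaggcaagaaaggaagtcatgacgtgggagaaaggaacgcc
H2-T10, chr17:36121445-36121694, minus strand: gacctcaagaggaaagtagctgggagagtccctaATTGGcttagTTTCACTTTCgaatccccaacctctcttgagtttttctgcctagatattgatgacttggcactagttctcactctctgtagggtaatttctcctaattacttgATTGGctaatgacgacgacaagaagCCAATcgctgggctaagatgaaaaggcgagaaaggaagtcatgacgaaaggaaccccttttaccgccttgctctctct

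*H2-T10* and *H2-T22* were identical at 223 of these 250 bases (89.2%), *H2-D1* and *H2-Q4* at 202 (80.8%) and *H2-D1* and *H2-K1* at 174 (69.6%). The least alike pair, *H2-M3* and *H2-T10*, had 137 (54.8%). The stretches of *H2-D1* and *H2-K1* are offset, with the shared NF-κB type match from -171 bp in *H2-D1* and from -111 bp in *H2-K1*. Part of each stretch thus has no counterpart in the other, and 69.6% understates how alike their shared part is. GGGNNTTCC was found in *H2-D1*, *H2-K1* and *H2-Q4*, that is in 3 of 8 members, against 4.98% of 32851 promoters of the same length. The repeated GAAA was found in *B2m*, *H2-T10*, *H2-T22* and *H2-T23* (4 of 8, against 2.98%), and GAANNGAAA in *H2-D1*, *H2-K1*, *H2-M3* and *H2-Q4* (4 of 8, against 6.31%). CCAAT was found in 8 of 8, against 33.8%. TGACGTCA and GAGGAAG, also searched on both strands, were found in 0 of 8, against 1.55% and 10.6% of all promoters. No match in these members overlapped a match to another motif, and a match describes letters only.

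H3K27ac was high at the start of every member with a gene model except *H2-T10*, which was high in C57BL/6J alone. Values are tags per window, normalized to the mean library of 7281272 tags, and the window nearest each start site is given by its distance, negative values being upstream. Over 9 libraries the start windows averaged 683 at *H2-D1* (-144 bp), 565 at *H2-M3* (108 bp), 470 at *B2m* (-115 bp), 414 at *H2-K1* (-2 bp), 398 at *H2-L* (605 bp), 369 at *H2-Q4* (-167 bp), 271 at *H2-T23* (-53 bp), 227 at *H2-K2* (-104 bp), 209 at *H2-T22* (-64 bp) and 116 at *H2-T10* (-94 bp). All windows have the same length. The window named *H2-L* lies over the body of *H2-D1* and overlaps the *H2-D1* start window, so it is not a separate start. Apart from *H2-T10*, the highest strain mean was 1.11 to 1.75 times the lowest, no start window was called in any of the 3 strain comparisons, and the lowest adjusted p was 0.0731 (*H2-K2*, A/J against C57BL/6J). ChIP over input at these 9 windows ranged from 1.80 (*H2-T22*, C57BL/6J) to 25.5 (*H2-Q4*, C57BL/6J), and both ends rest on the single C57BL/6J input. ChIP and input were each scaled to their own total over all windows. The ratio is thus relative to all windows together and not to background.

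**Figure D1:**
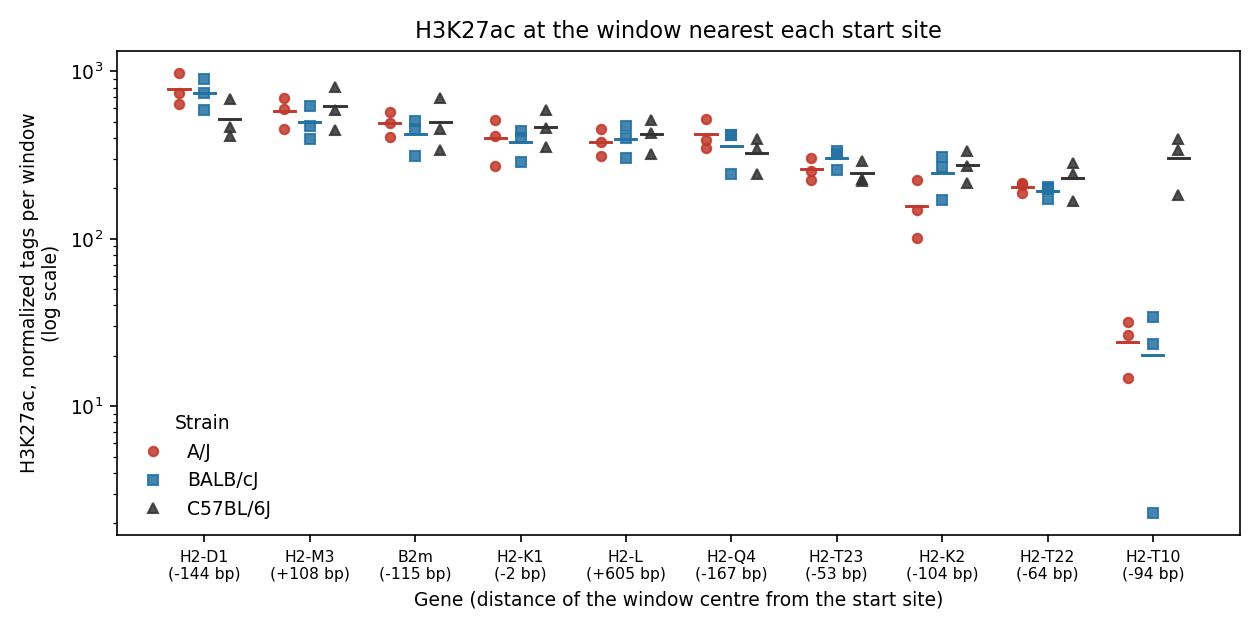
H3K27ac at the window nearest the start site of each of the 10 gene names, in normalized tags per window on a log axis, with 1 point per library, bars for strain means, and the window's distance from the start under each name. The window named *H2-L* lies over the body of *H2-D1*. The genes are ordered by their mean, and the A/J and BALB/cJ libraries of *H2-T10* lie between 2.29 and 34.3, below its C57BL/6J libraries at 182 to 393.

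*H2-D1*, a classical heavy chain gene, had 981, 641 and 745 tags at its start in A/J, 895, 584 and 746 in BALB/cJ and 464, 410 and 682 in C57BL/6J. The strains overlapped here, with 1 C57BL/6J library inside the range of the others. *H2-K1*, its partner at the other end of the complex, had 515, 273 and 409 in A/J, 443, 288 and 402 in BALB/cJ and 458, 354 and 585 in C57BL/6J, and *B2m* had 492, 403 and 571 in A/J, 455, 311 and 508 in BALB/cJ and 452, 338 and 697 in C57BL/6J. In both genes the libraries of the 3 strains lay among each other. *H2-M3*, which presents peptides with a formylated end, had 599, 454 and 693 in A/J, 473, 394 and 619 in BALB/cJ and 592, 447 and 812 in C57BL/6J.

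The strains also overlapped at the starts of the non-classical genes. *H2-Q4* had 522, 350 and 389 tags at its start in A/J, 417, 245 and 416 in BALB/cJ and 342, 244 and 393 in C57BL/6J. *H2-T23*, whose product Qa-1 is a ligand of the NKG2A receptor of natural killer cells, had 255, 225 and 304 in A/J, 320, 256 and 334 in BALB/cJ and 220, 228 and 292 in C57BL/6J. *H2-T22*, whose product is bound by some γδ T cells, had 187, 217 and 208 in A/J, 203, 174 and 199 in BALB/cJ and 243, 168 and 283 in C57BL/6J. None of the 9 tested windows of *H2-M3*, *H2-Q4*, *H2-T22*, *H2-T23* and of *H2-L* at 605 bp was called in a strain comparison. When the replicate number entered as a block, the *H2-Q4* window at 721 bp had an adjusted p of 0.0257 for A/J over C57BL/6J, at a log2 fold change of 0.47, with 339, 291 and 332 tags in A/J against 204, 189 and 299 in C57BL/6J, under the fold threshold.

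Of the 63 windows, 42 passed the filter on a mean normalized count over 16 and were tested. The 21 others, with means of 3.54 to 15.5, lay mostly along and beyond the 3′ parts of *H2-K1* (7), *H2-L* (7), *H2-K2* (3) and *H2-Q4* (3), with 1 at *B2m*. In 35 of the 42 tested windows every strain mean was over 16, and 2 *H2-T10* windows passed only through C57BL/6J, so that they had to differ from it. A window was called at an adjusted p under 0.05 (edgeR quasi-likelihood test, Benjamini-Hochberg over all 60387 windows) with an absolute log2 fold change over 1. A/J over BALB/cJ had 2 member windows called (4.76%), both higher in A/J, against 3.63% of all windows called and 1.4% called higher. A/J over C57BL/6J had 5 (11.9%), all lower in A/J, against 7.09% of all windows called and 3.93% called lower. BALB/cJ over C57BL/6J had 7 (16.7%), all lower in BALB/cJ, against 8.56% of all windows called and 4.1% called lower. By adjusted p alone the members counted 3, 6 and 11 windows, against 4.02%, 8.35% and 10.8% of all windows.

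These counts were few and came from few places, as 2 of 2, 3 of 5 and 3 of 7 of the called windows were those of *H2-T10*. Without the 2 windows that passed only through C57BL/6J, 0, 3 and 5 were called. The median log2 fold change of the 42 windows was 0.29 for A/J over BALB/cJ, -0.15 for A/J over C57BL/6J and -0.34 for BALB/cJ over C57BL/6J, against 0.01, -0.01 and -0.01 over all windows. The comparisons share libraries, so their values stand side by side only. The labels state no pairing across strains. The main fit, which gave the counts above, has no block. Libraries of the same replicate number deviated together, so a fit with the number as a block is set beside it. With the number as a block 9 windows were called for A/J over BALB/cJ (21.4%, against 5.39% of all windows). For A/J over C57BL/6J 4 were called (9.52%, against 8.91%) and for BALB/cJ over C57BL/6J 10 (23.8%, against 10.5%). The windows added by the block lay along *H2-K1* and *H2-L*.

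*H2-T10*, the pseudogene neighbour of *H2-T22*, had by far the widest strain difference of the members. Its start window (chr17:36121038-36122038) held 26.5, 14.8 and 31.7 tags in A/J, 23.6, 2.29 and 34.3 in BALB/cJ and 340, 182 and 393 in C57BL/6J. All C57BL/6J libraries lay above all others, while A/J and BALB/cJ overlapped. The log2 fold change was -3.53 (standard error 0.41, adjusted p = 6.56e-06) for A/J over C57BL/6J and -3.71 (standard error 0.41, adjusted p = 3.69e-06) for BALB/cJ over C57BL/6J. A/J over BALB/cJ was 0.18, with an adjusted p of 0.924. Both differences with C57BL/6J were called with each of the 9 libraries left out in turn. *H2-T22*, with a promoter 89.2% identical, differed between the same strains by -0.21 and -0.28, with adjusted p-values of 0.693 and 0.513.

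Upstream of *H2-T10* are the 2 windows that passed the filter only through C57BL/6J, and their difference from it is given as a description. The window at -2116 bp (chr17:36123060-36124060) had 2.21, 2.97 and 9.06 tags in A/J, 0, 0 and 0 in BALB/cJ and 62.6, 25.6 and 55.4 in C57BL/6J. The window at -2394 bp, which overlaps it, had 5.89, 5.93 and 9.06 in A/J, 0, 0 and 0 in BALB/cJ and 56.0, 23.3 and 44.7 in C57BL/6J. Against a floor of 3 counts over the BALB/cJ libraries (1.00 normalized tags), the mean was at least 4.73-fold and 6.94-fold higher in A/J and at least 47.7-fold and 41.2-fold higher in C57BL/6J. The A/J libraries lay between those of the other strains in both windows. A/J over BALB/cJ had adjusted p-values of 0.0183 and 0.00306. These windows are close to the depth filter, and no *H2-T10* window was called for A/J over BALB/cJ when A/J replicate 3, C57BL/6J replicate 1 or C57BL/6J replicate 3 was left out, so that the member count was then 0. The window at -2394 bp was called in 6 of the 6 leave-one-out fits in which it passed the depth filter. That at -2116 bp was called in 4 of 7. It was lost without A/J replicate 3 (adjusted p = 0.215) or BALB/cJ replicate 1 (0.0767) or 3 (0.124).

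DNA recovered without the antibody moved with the same strains at *H2-T10*. At the start window the input held 0, 0 and 1.17 normalized tags in A/J, 4.22, 1.4 and 0 in BALB/cJ and 17.2 in the single C57BL/6J library. At -2116 bp it held 3.64, 4.13 and 0 in A/J, 0, 0 and 0 in BALB/cJ and 6.89 in C57BL/6J, and at -2394 bp 4.86, 5.68 and 0 in A/J, 0, 0 and 0 in BALB/cJ and 6.89 in C57BL/6J. Over the 3 windows the input averaged 2.16 for A/J, 0.625 for BALB/cJ and 10.3 for C57BL/6J per window. These windows fell under the input filter of a mean count over 5. With a filter of 2, the start window was the only member window whose input was called, at -5.42 for A/J over C57BL/6J (adjusted p = 0.031, standard error 1.22), and BALB/cJ over C57BL/6J was -3.17 with an adjusted p of 0.56. ChIP over input at the start window was 8.39 for A/J, 1.44 for BALB/cJ and 2.38 for C57BL/6J, on an A/J input of 1 tag in all. With input as the baseline, the strain difference at the start window was 2.36 for A/J over C57BL/6J (adjusted p = 0.704) and -0.39 for BALB/cJ over C57BL/6J (adjusted p = 0.957). Fewer copies of the DNA, fewer reads that could be placed there and less H3K27ac cannot be told apart in these windows.

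**Figure D2:**
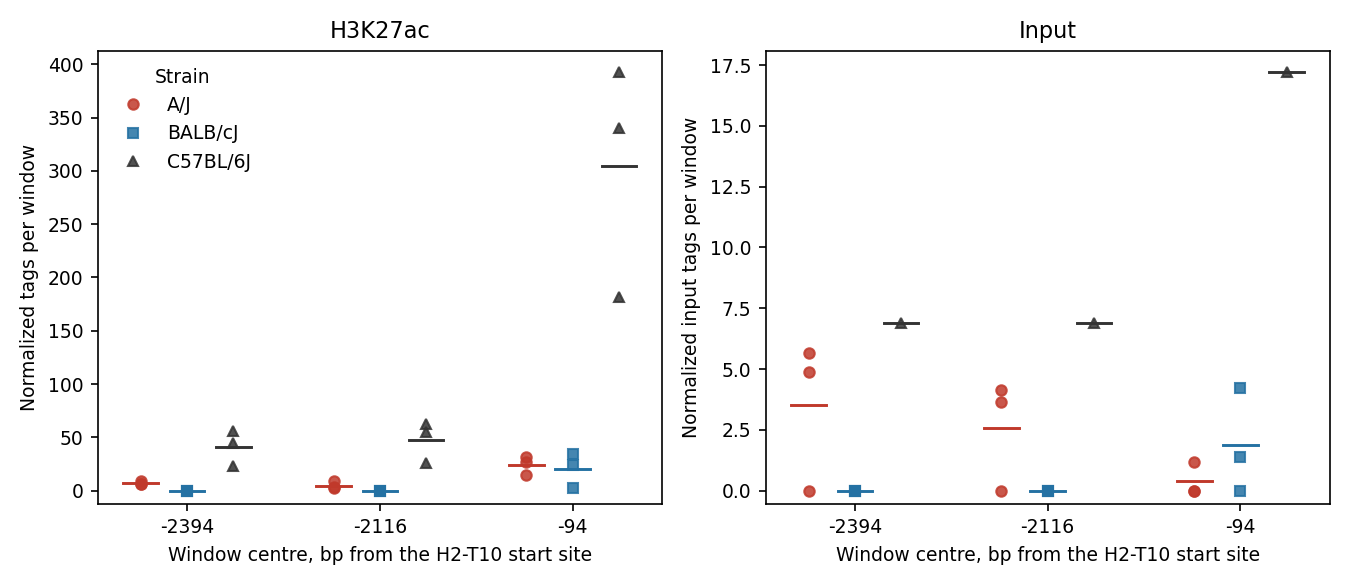
H3K27ac (left) and ChIP input (right) at the 3 *H2-T10* windows, in normalized tags per window on linear axes, with 1 point per library and bars for strain means. The x axis gives the distance of the window from the start site, C57BL/6J has 1 input library, and the BALB/cJ libraries are at 0 in both upstream windows in either panel.

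*H2-K2*, the pseudogene next to *H2-K1*, was lower in A/J and in BALB/cJ than in C57BL/6J at its upstream window (-860 bp, chr17:33979151-33980151). It had 112, 32.6 and 64.0 tags in A/J, 117, 54.9 and 79.6 in BALB/cJ and 179, 135 and 242 in C57BL/6J. The 3 C57BL/6J libraries lay above the 6 others. The log2 fold change was -1.34 (standard error 0.32, adjusted p = 0.00925) for A/J over C57BL/6J and -1.12 (standard error 0.32, adjusted p = 0.0252) for BALB/cJ over C57BL/6J. The first call was lost without A/J replicate 3 (adjusted p = 0.0766) or C57BL/6J replicate 3 (0.102), and the second without BALB/cJ replicate 2 (0.0809) or 3 (0.126) or C57BL/6J replicate 1 (0.0557) or 3 (0.19). Input at this window averaged 9.72 tags for A/J, 6.37 for BALB/cJ and 6.89 for C57BL/6J. At the start window of *H2-K2* A/J had 223, 101 and 148 tags, BALB/cJ 308, 169 and 267 and C57BL/6J 273, 217 and 336. With the block its difference was -0.83 for A/J over C57BL/6J (adjusted p = 9.95e-05, against 0.0731 without) and -0.66 for A/J over BALB/cJ (0.00383, against 0.247 without).

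At *H2-K1* the strains overlapped at the start, and the flanks were lowest in BALB/cJ. The window at -966 bp (chr17:34000813-34001813) had 48.6, 20.8 and 32.3 tags in A/J, 23.6, 4.58 and 13.9 in BALB/cJ and 73.3, 58.2 and 50.4 in C57BL/6J. BALB/cJ and C57BL/6J did not overlap, and BALB/cJ over C57BL/6J was -1.93 (standard error 0.39, adjusted p = 0.0011), called with each of the 9 libraries left out. Within the gene, at 1494 bp (chr17:33998339-33999339), A/J had 47.1, 35.6 and 42.7 tags, BALB/cJ 24.5, 22.9 and 9.49 and C57BL/6J 45.3, 58.2 and 40.3. BALB/cJ over C57BL/6J was -1.36 there (standard error 0.36, adjusted p = 0.0136), and the call was lost without BALB/cJ replicate 3 (adjusted p = 0.143).

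A/J over BALB/cJ went the same way along *H2-K1* and passed only when the replicate number was a block. The log2 fold changes were 1.20 at -966 bp (adjusted p = 0.00872, against 0.0995 without the block), 1.30 at 1494 bp (0.00295, against 0.0506), 1.27 at 2350 bp (0.0217, against 0.098) and 1.30 at 2778 bp (0.0262, against 0.105). With the block, BALB/cJ over C57BL/6J also passed at 2350 bp (-1.18, adjusted p = 0.0233) and at 2778 bp (-1.27, adjusted p = 0.0198), where the fit without it gave 0.09 and 0.0765. Beyond 2 windows with over 200 tags a library, at -2 bp and 678 bp, H3K27ac of *H2-K1* was low. ChIP over input, each scaled to its own total over all windows and so not relative to background, was 0.379 to 1.58 at -966 bp and 0.484 to 0.818 at 1494 bp. At the windows called only with the block it was lower still, 0.202 to 0.494 at 2350 bp and 0.172 to 0.433 at 2778 bp. With input as the baseline no *H2-K1* window was called, and BALB/cJ over C57BL/6J was -1.83 at -966 bp (adjusted p = 0.57) and -0.36 at 1494 bp (adjusted p = 0.944).

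The windows named *H2-D1* and *H2-L* belong to 1 place in the genome. The *H2-D1* gene spans chr17:35263094-35267497 on the plus strand, and the files assign its upstream windows to *H2-D1* and those from 605 bp on, over its body and beyond, to *H2-L*. Reads of an *H2-L* copy in A/J and BALB/cJ have no place of their own in genomes built on the C57BL/6J sequence, and the *H2-D1* and *H2-L* copies cannot be told apart in these windows. Input over the 4 windows named *H2-D1* averaged 24.6 tags for A/J, 24.5 for BALB/cJ and 12.1 for C57BL/6J per window. Over the 13 windows named *H2-L* it averaged 10.5 for A/J, 11.4 for BALB/cJ and 9.14 for C57BL/6J. The C57BL/6J values rest on 1 input library.

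H3K27ac upstream of *H2-D1* was higher in A/J and in BALB/cJ than in C57BL/6J at -3864 bp (chr17:35258730-35259730). The window had 433, 386 and 370 tags in A/J, 373, 398 and 267 in BALB/cJ and 184, 256 and 222 in C57BL/6J, and C57BL/6J did not overlap the others. A/J over C57BL/6J was 0.85 (standard error 0.23, adjusted p = 0.0153), under the fold threshold, and BALB/cJ over C57BL/6J was 0.65 (adjusted p = 0.0665, and 0.00112 with the block). At the start of *H2-D1* the block gave 0.59 for A/J over C57BL/6J (adjusted p = 0.000899, against 0.179 without) and 0.50 for BALB/cJ over C57BL/6J (0.00447, against 0.241). With input as the baseline the differences at the start turned to -0.38 and -0.64, and that of BALB/cJ at -3864 bp to -0.07. Input at -3864 bp averaged 24.1 tags for A/J, 24.2 for BALB/cJ and 13.8 in the single C57BL/6J library. ChIP over input there was 2.21, 1.92 and 2.15, so that A/J and C57BL/6J were close.

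In the 4 tested windows named *H2-L* more than 1000 bp downstream, over the body of *H2-D1* and past its end, BALB/cJ had the lowest strain mean. In the 7 windows there that were too low to test (means of 9.11 to 14.4 tags) it was lowest in 4 and C57BL/6J in 3. At 907 bp A/J had 146, 71.2 and 123 tags, BALB/cJ 130, 54.9 and 119 and C57BL/6J 188, 186 and 219, and BALB/cJ over C57BL/6J was -0.92 (standard error 0.27, adjusted p = 0.0294). At 6797 bp, past the end of *H2-D1*, A/J had 28.7, 23.7 and 15.5, BALB/cJ 9.29, 9.16 and 5.11 and C57BL/6J 22.7, 14.0 and 18.9, with no overlap of BALB/cJ with either. With the block A/J over BALB/cJ was 1.55 there (adjusted p = 0.0107, against 0.0552 without) and BALB/cJ over C57BL/6J -1.40 (0.0165, against 0.0745). The block also called A/J over BALB/cJ at 2292 bp (1.21, adjusted p = 0.0161) and 2710 bp (1.13, adjusted p = 0.0402).

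*B2m*, on another chromosome than the heavy chain genes, had its peak over the start in all strains and a lower shoulder in its introns, with the lowest strain mean in BALB/cJ in 6 of 8 windows. BALB/cJ over C57BL/6J was negative in 12 of 12 tested windows, with a median of -0.47, against -0.01 over all windows. Neighbouring windows overlap, and the share of negative values over all windows was not computed. The window at 4603 bp (chr2:122151790-122152790) had 42.7, 35.6 and 46.6 tags in A/J, 27, 54.9 and 28.5 in BALB/cJ and 107, 95.5 and 67.4 in C57BL/6J. C57BL/6J lay above the others, at -1.37 for BALB/cJ over C57BL/6J (adjusted p = 0.00344, standard error 0.31) and -1.05 for A/J over C57BL/6J (adjusted p = 0.0259, standard error 0.30). The first call held with each of the 9 libraries left out. The second was lost with the block (-0.99, adjusted p = 0.00258, under the fold threshold) and without A/J replicate 1, 2 or 3 or C57BL/6J replicate 1 or 2.

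At 2948 bp of *B2m* A/J had 82.5, 71.2 and 70.5 tags, BALB/cJ 40.5, 36.6 and 40.2 and C57BL/6J 77.3, 55.9 and 83.8. BALB/cJ did not overlap the others, and the difference was 0.93 for A/J over BALB/cJ (adjusted p = 0.0464) and -0.90 for BALB/cJ over C57BL/6J (adjusted p = 0.0271). BALB/cJ over C57BL/6J was -0.97 at 1868 bp (adjusted p = 0.0087) and -0.82 at 2406 bp (adjusted p = 0.0333). Of the 15 tested windows more than 1000 bp downstream of the starts of *B2m*, *H2-K1* and *H2-L*, BALB/cJ had the lowest strain mean in 13. That is 6 of 8 at *B2m*, 3 of 3 at *H2-K1* and 4 of 4 at *H2-L*. Some of these windows overlap, and the share over all windows was not computed, so the count describes these windows only.

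**Figure D3:**
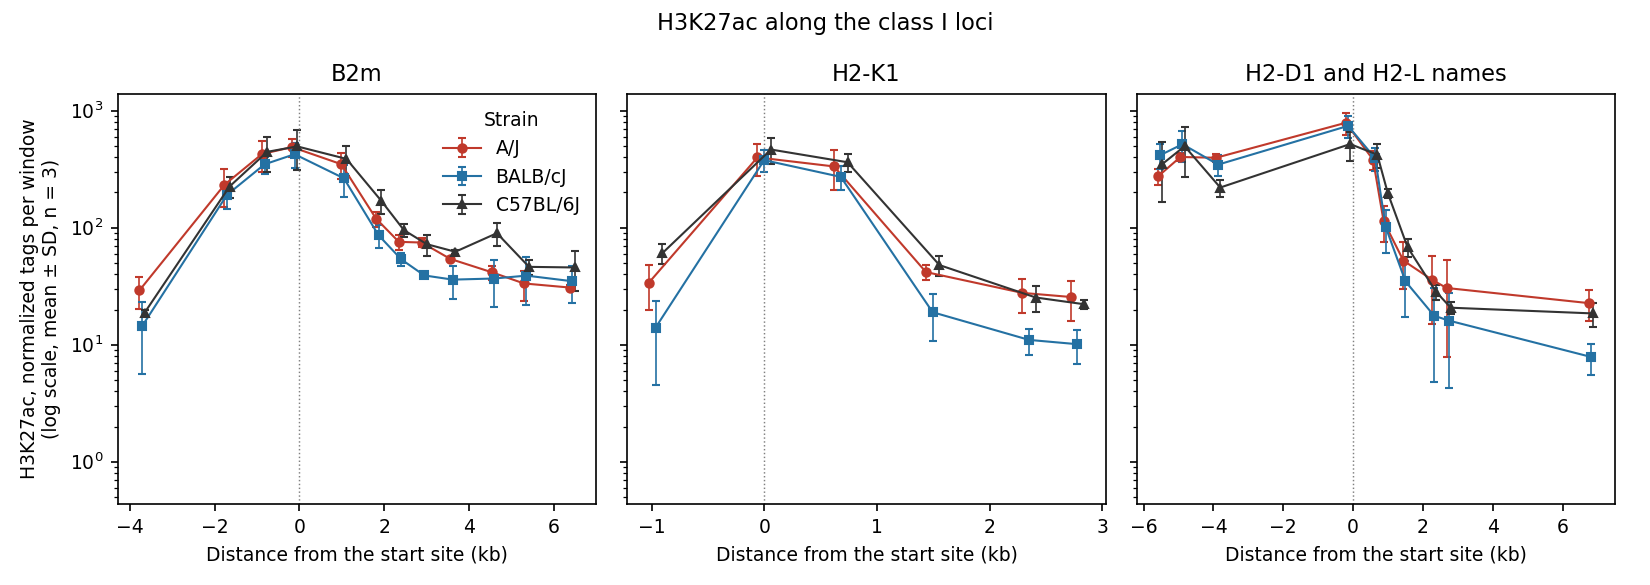
H3K27ac along *B2m*, *H2-K1* and the *H2-D1* and *H2-L* names, in normalized tags per tested window on a log axis, against the distance of the window from the start site in kb, with points for strain means, bars for the SD (n = 3 libraries) and strains set slightly apart along the x axis. The strains run close together at the start sites, and the BALB/cJ line is below the others at 1494 bp of *H2-K1* and at 2948 bp of *B2m*.

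Input was tested in the same way at 60 of the 63 windows, with a mean count over 5, since the complex can differ between strains in copy number. No window was called, against 0.0386% of all windows for A/J over BALB/cJ, 0.029% for A/J over C57BL/6J and 0.0322% for BALB/cJ over C57BL/6J (edgeR). At an unadjusted p under 0.05 each comparison had 6 member windows, against 4.35%, 5.22% and 5.49% of all windows. The single C57BL/6J input was taken to vary like the others. Inputs held 583518 to 1916588 tags in all windows, so that a member window had few tags, and only wide differences could be seen.

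In CB6F1/J both alleles sit in the same nucleus. Of the 91 regions, 46 had a variant-spanning read in at least 1 library and 8 had enough to be tested. *H2-M3*, *H2-T22* and *H2-T23* had none, although 2623.5, 40.0 and 484.5 reads mapped perfectly to the BALB/cJ genome and 2612, 39.0 and 479.5 to the C57BL/6J genome over their regions. Of the 8 tested regions 2 were called (25.0%), both lower on the BALB/cJ allele, against 6.54% of 4467 regions called and 4.05% called lower. With the library as a block, which is the pairing by design, no region was called, 0 of 8 members and 0.0% of all regions. In that fit 3 of the 8 had an unadjusted p under 0.05, and DESeq2 without a block called 2.

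The called regions lay over exon 2 of *H2-K1* and over exon 2 of *H2-D1*, where the files give the name *H2-L*. Exon 2 encodes the α1 domain of the heavy chain, which forms one side of the peptide groove. The 2 exons are identical at 246 of 270 bases (91.1%). Both regions are shown on the strand of the gene in build GRCm38.p6, with the bases of exon 2 in capitals and those of the next intron in lower case.
H2-K1, chr17:33999635-33999834, minus strand: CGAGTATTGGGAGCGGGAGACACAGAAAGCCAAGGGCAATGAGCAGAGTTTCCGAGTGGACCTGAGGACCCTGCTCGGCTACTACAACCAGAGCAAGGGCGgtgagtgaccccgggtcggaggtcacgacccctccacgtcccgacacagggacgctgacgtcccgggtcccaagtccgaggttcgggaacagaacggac
H2-L by name, over H2-D1, chr17:35263528-35263727, plus strand: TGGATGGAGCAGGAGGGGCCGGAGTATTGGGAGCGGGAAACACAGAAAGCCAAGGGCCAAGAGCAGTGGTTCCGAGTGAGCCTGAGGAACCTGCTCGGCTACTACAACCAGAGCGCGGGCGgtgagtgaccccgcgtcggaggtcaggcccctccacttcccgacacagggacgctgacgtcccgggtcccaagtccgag

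At the *H2-K1* region (599 bp) the 3 libraries had 0, 3 and 0 variant-spanning reads on the BALB/cJ allele against 56, 139 and 98 on the C57BL/6J allele. The BALB/cJ over C57BL/6J ratio of the sums, scaled for column size, was 0.0104 (exact 95% interval 0.00213 to 0.0307, counting error only). The log2 fold change was -6.41 (standard error 0.59, adjusted p = 2.64e-06, and 0.0586 with the library as a block). The deposited columns of all perfectly mapped reads held 0, 4.5 and 1.5 on the BALB/cJ genome and 56.5, 149.5 and 93.0 on the C57BL/6J genome. The last is fewer than the 98 variant-spanning reads of that library, so these columns do not simply contain the variant-spanning reads. At the region named *H2-L* (504 bp) the BALB/cJ allele had 0, 0 and 0 and the C57BL/6J allele 60, 80 and 78. Against a floor of 3 counts over the 3 libraries, the C57BL/6J allele was at least 73.5-fold higher (adjusted p = 2.64e-06, and 0.0722 with the block). Here the perfectly mapped reads were 63.5, 78.0 and 72.5 on the BALB/cJ genome and 123, 147 and 142 on the C57BL/6J genome.

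The other tested regions had reads on both alleles in every library. Their BALB/cJ shares pool the reads of the 3 libraries and are not scaled for column size. The intervals of the shares hold counting error only, without the spread between libraries. Upstream of *H2-D1*, at -4887 bp, the BALB/cJ allele had 44.5, 96.0 and 103 reads and the C57BL/6J allele 85.5, 210.5 and 180, a BALB/cJ share of 33.8% (exact 95% interval 30.4% to 37.5%). The log2 fold change was -0.93 (standard error 0.26, adjusted p = 0.0375, and 0.0596 with the block), under the fold threshold. At -5488 bp of the same gene the BALB/cJ allele had 33.0, 62.5 and 29.5 and the C57BL/6J allele 26.5, 109.5 and 50.5 (adjusted p = 0.695). At the start of *H2-K1* (-34 bp) the BALB/cJ allele had 12.5, 28.5 and 15 and the C57BL/6J allele 12, 24 and 16, a BALB/cJ share of 51.9% (42.0% to 61.6%).

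No *B2m* region was called between alleles. At 518 bp the BALB/cJ allele had 104, 238.5 and 179.5 reads and the C57BL/6J allele 111, 345.5 and 222.5. The BALB/cJ share was 43.5% (40.6% to 46.3%, counting error only, not scaled for column size), and the adjusted p, which takes in the spread between libraries, was 0.652. At -1678 bp the shares were 50.5% (45.1% to 55.7%) and at 1483 bp 52.3% (45.1% to 59.5%), each with an adjusted p of 0.999. Among regions with too few reads to test, the 6 of *H2-K2* summed to 76.5 reads on the BALB/cJ and 75.5 on the C57BL/6J allele but went opposite ways, with 1 and 27 at 10066 bp and 36.5 and 7.5 at 771 bp, and the 3 of *H2-Q4* to 47.0 and 22.5. The 1 region of *H2-T10* with variant-spanning reads had 0, 5 and 0 on the BALB/cJ allele and 2, 13 and 0.5 on the C57BL/6J allele. Its 5 regions together had 244 perfectly mapped reads on the BALB/cJ and 254 on the C57BL/6J genome, and 4 of them held no variant-spanning read, so that the wide strain difference at *H2-T10* could not be read between alleles.

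**Figure D4:**
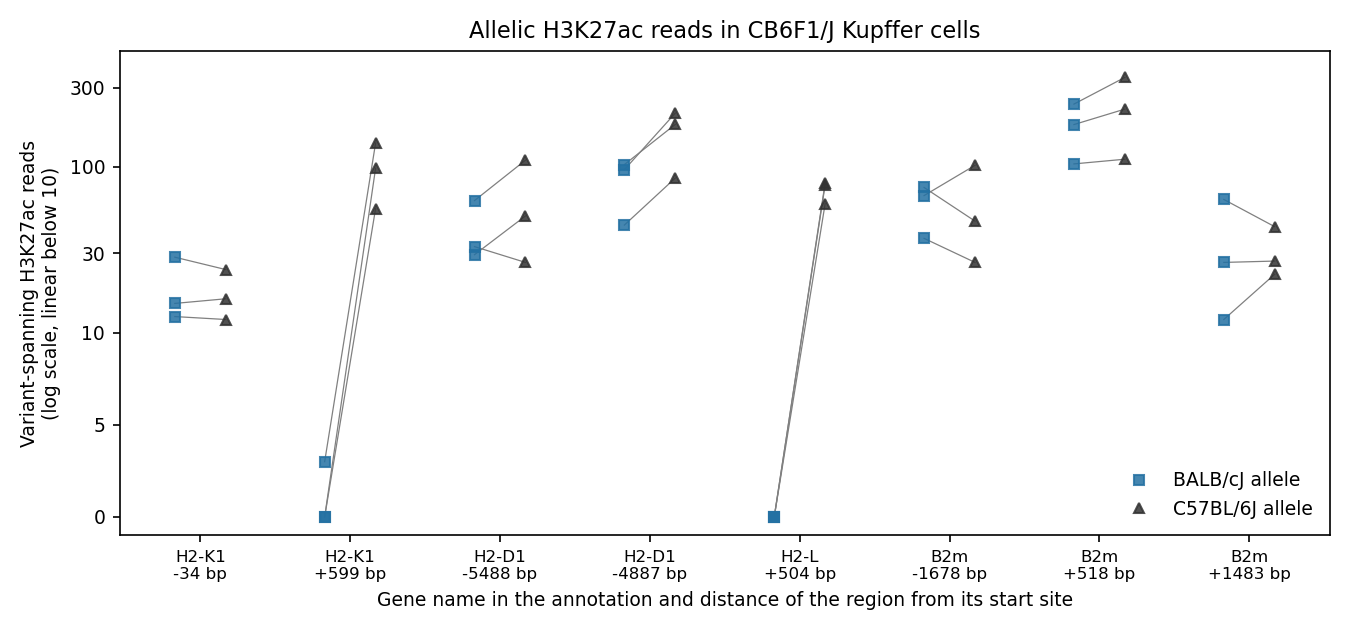
Variant-spanning H3K27ac reads of the 8 tested CB6F1/J regions, by gene name and distance from the start site, on the BALB/cJ and the C57BL/6J allele. The axis is linear below 10 and logarithmic above, with lines joining the alleles of 1 library. The BALB/cJ allele is at 0 to 3 reads in the *H2-K1* region at 599 bp and at 0 in the *H2-L* region at 504 bp, while the other regions have reads on both alleles.

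The parental strains did not show the allelic gap over exon 2. At 678 bp of *H2-K1* the parental windows had 328, 206 and 281 tags in BALB/cJ and 345, 312 and 431 in C57BL/6J, and at 605 bp of *H2-L* 474, 302 and 402 in BALB/cJ and 429, 321 and 515 in C57BL/6J. The parental minus the allelic log2 difference was 6.17 at *H2-K1* (standard error 0.60, adjusted p = 7.02e-09) and 11.06 at *H2-L* (standard error 0.93, adjusted p = 8.71e-10, fitted with the BALB/cJ allele at 0 and no bound). These were 2 of 6 member windows tested (33.3%), both positive, against 3.01% of 3326 windows called and 1.74% called positive. With the parental replicate number and the CB6F1/J library as a block 3 were called, against 6.37% of all windows. The added one was at -4885 bp of *H2-D1* (1.07, standard error 0.23, adjusted p = 0.00429, against 0.0565 without). The parental window holds all tags of its 1000 bp and the allelic region only reads that span a variant in 200 bp, so the contrasts differ in what they count as well as in the animals.

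Of 14 genes of peptide processing and loading (40 tested windows) 0, 0 and 1 windows were called in the 3 comparisons, in the order A/J over BALB/cJ, A/J over C57BL/6J and BALB/cJ over C57BL/6J, that is 0.0%, 0.0% and 2.5%, against 3.63%, 7.09% and 8.56% of all windows. The 1 called belonged to *Psmb9*, an immunoproteasome subunit, with 11.4 ± 2.05 tags in BALB/cJ and 44.3 ± 12.4 in C57BL/6J (SD, n = 3 each), at -2.04 (standard error 0.40, adjusted p = 0.000859). *Psmb8*, another such subunit, had 127 ± 15.1 tags in BALB/cJ and 208 ± 46.9 in C57BL/6J at its window of lowest p (-0.74, adjusted p = 0.0345). The median log2 fold change of this list was 0.38, 0.02 and -0.25, against 0.01, -0.01 and -0.01 over all windows.

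Of 17 genes that regulate class I (190 windows), 3 windows were called higher and 0 lower in the first comparison, 2 and 7 in the second and 6 and 13 in the third, or 1.58%, 4.74% and 10.0% called, near or below the shares of all windows. *Ifnar1*, a chain of the type I interferon receptor, had 231 ± 85.9 tags for A/J, 202 ± 62.7 for BALB/cJ and 6.55 ± 2.46 for C57BL/6J in one window, at 5.12 and 4.94 over C57BL/6J (adjusted p = 1.03e-09 and 1.7e-09). Of 20 further class I genes, 14 with tested windows (44 in all), 2 windows were called higher and 1 lower in the first comparison, 3 and 0 in the second and 1 and 2 in the third, or 6.82% in each, again near those of all windows. *Fcgrt*, the heavy chain of the neonatal Fc receptor, which also binds β2-microglobulin, had 69.2 ± 8.72 for A/J, 89.2 ± 22.1 for BALB/cJ and 15.4 ± 6.41 for C57BL/6J. Its differences were 2.16 and 2.46 over C57BL/6J (adjusted p = 5.26e-05 and 7.6e-06).

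Across the 9 libraries and 10393 promoter windows, the pattern of *B2m* at its start was most like those of *Pde7b* (Pearson r = 0.987), *Acsl4* (0.985) and *Lrmp* (0.981), and that of *H2-K1* most like *Mars* (0.959), *Cntrob* (0.959) and *Ubald2* (0.956). The 9 libraries share depth and replicate number across strains, and these values are a description only.

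Parental H3K27ac libraries held 2291426 to 12980348 tags in all windows, least in replicate 2 of each strain, whose counts come in steps of 0.5. Without replicate 2 of every strain, chosen after seeing the data, 3, 6 and 10 member windows were called in place of 2, 5 and 7. CB6F1/J allele columns held 182654 to 400681 variant-spanning reads. Promoter windows were found for 12 of 12 Kupffer cell markers, 11 of them over 50 tags, and for 0 to 2 genes of each of 7 lists of other liver and blood cells. Of these 7 lists, *Ecm1* of the stellate cell list was the only gene over 50, at 56.6, and that list summed to 33.6 to 50.4 for A/J, 76.0 to 108 for BALB/cJ and 40.0 to 58.2 for C57BL/6J. The 1 gene found of the list of monocytes and neutrophils had 8.90 to 21.3 tags for A/J, 27 to 59.5 for BALB/cJ and 8.82 to 27.9 for C57BL/6J. According to the methods, the sort took CD45+, F4/80-high and CD146- cells. Whether other cells take part in the lower BALB/cJ values was not tested.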

How the data were processed

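H3K27ac ChIP–seq and ChIP input of sorted Kupffer cells were analysed from the tables that the authors deposited. According to the methods, the authors mapped reads with Bowtie2 to each strain's own genome (mm10, or mm10 with SNPs and indels of that strain put in, larger structural variants aside), shifted them to mm10 with MMARGE and counted HOMER tags in 1000-bp windows around merged ATAC-seq peaks, with no normalization. The deposited values are raw counts in replicates 1 and 3 of each strain and expected counts in steps of 0.5 in replicate 2, the inputs and the F1, where the origin of the fractions is not given in the sources used here. The F1 regions as deposited are 200 bp long, although the methods give 1000 bp. Low counts of neighbouring F1 regions with centres 250 to 400 bp apart deviated almost independently (r = 0.0545 over 3087 pairs, against 0.831 over 589 pairs of the 1000-bp windows), so 200 bp was taken as the counted span. There the authors counted reads that map perfectly to the BALB/cJ or the C57BL/6J genome and span a variant. Upstream versions are not given in the sources used here. Near-identical class I copies can exchange reads in such counts.

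Counts were rounded and fitted with edgeR 4.0.16 (quasi-likelihood test, robust, TMM) in R 4.3.3, in 1 fit of 9 libraries for the strains, 1 of 6 allele columns on autosomes and 1 of 7 inputs. The mean normalized count had to be over 16 (5 for input). P-values were Benjamini-Hochberg adjusted over all windows tested, and the standard error is the absolute log2 fold change over the square root of F. The parental minus allelic difference was an interaction term, for which each window took the nearest F1 region within 250 bp. edgeR estimated a biological coefficient of variation of 0.214 for the strain libraries and of 0.314 for the allele columns. The script was tested on simulated data. DESeq2 1.42.0, other scalings and filters, a replicate block, input as baseline and left-out libraries were tried.

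Samples were grouped by their labels. Libraries of the same replicate number deviated together (r = 0.227 to 0.414 in 9 pairs, and 9 of 9 libraries correlated best with their own number). The numbers were therefore entered as a block in an alternative fit, as was the library for the F1 alleles, which are paired by it. The main fits have no block. Members and gene lists were chosen with earlier results of these data known. The rule for naming gives every member its start window, its window of lowest p and each called window, and of the 3 lists the genes of lowest p that are described, of which 1 is not reported here. Windows that passed only with the block are also named. F1 inputs were not analysed here.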

Additional observations from a re-analysis of the deposited data

Results flagged for a closer look

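The BALB/cJ over C57BL/6J difference was not the same between the parental strains and between the alleles of CB6F1/J at 2 windows over exon 2 of class I genes, by an interaction term in 1 edgeR fit. At the *H2-K1* window 678 bp from the start the parental minus allelic log2 difference was 6.17 (adjusted p = 7.02e-09), and it was 5.61 to 11.20 over 13 alternatives. At the *H2-L* window 605 bp from the start, over the body of *H2-D1*, it was 11.06 (adjusted p = 8.71e-10), and 8.59 to 11.39 over 13 alternatives. Both passed in each of these alternatives. In each of the 3 CB6F1/J libraries the BALB/cJ allele had 0 to 3 reads in the F1 region set against the window. What part the mapping of variant-spanning reads has in this was not tested.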

How the results depend on the processing

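Among the strain comparisons (A/J over BALB/cJ, A/J over C57BL/6J, BALB/cJ over C57BL/6J, with 2, 5 and 7 member windows called), RLE scaling and DESeq2 gave 2, 5 and 7 and no depth filter 2, 6 and 8. The replicate block gave 9, 4 and 10. Leaving out 1 library at a time gave 0 to 4, 2 to 6 and 4 to 10. A/J over BALB/cJ had 0 without A/J replicate 3, C57BL/6J replicate 1 or C57BL/6J replicate 3, 1 without BALB/cJ replicate 3, and 4 without BALB/cJ replicate 1 or C57BL/6J replicate 2. A/J over C57BL/6J had 2 without A/J replicate 3 or C57BL/6J replicate 3 and 3 without C57BL/6J replicate 1, and BALB/cJ over C57BL/6J had 4 without C57BL/6J replicate 3. Leaving out replicate 2 of every strain, added after seeing the data, gave 3, 6 and 10.

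With input as the baseline (edgeR, 16 libraries) 0, 0 and 0 member windows were called, with 8, 4 and 4 at an unadjusted p under 0.05, against 478, 446 and 402 called over all windows. Input depth limits this fit. It turned the sign of 9, 23 and 18 of the 42 differences each. Of these, 13 were at windows with an adjusted p under 0.05 with or without the replicate block. For A/J over BALB/cJ they were -2.20 and -2.20 at *H2-T10* (-2394 and -2116 bp). For A/J over C57BL/6J they were -0.38 at *H2-D1* (-144 bp), -0.23 at *H2-Q4* (721 bp), 2.36 at *H2-T10* (-94 bp), 0.40 at *H2-K2* (701 bp) and 0.57 at *H2-L* (907 bp). For BALB/cJ over C57BL/6J they were 0.52 and 0.31 at *H2-T10* (-2394 and -2116 bp), -0.64 and -0.075 at *H2-D1* (-144 and -3864 bp), 0.93 at *H2-K1* (678 bp) and 0.29 at *B2m* (3620 bp). The cause was not tested. Of the values of such windows under all alternatives, 640 kept their side of the threshold, 33 passed it anew, 28 fell under it and 13 reversed. At the windows nearest the start of the other 9 gene names 10, 12 and 12 of 135 values each had the opposite sign. Of the 135 for A/J over C57BL/6J, 1 was called, at *H2-K2* (-104 bp), and 0 were called in the other comparisons.

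Input windows called were 0 under RLE, with 1 input library left out (0 to 0, A/J over BALB/cJ) and with the replicate number as a block (0, with 3 at an unadjusted p under 0.05). Input libraries share only a number (r = 0.041, 0.035 and -0.0096). With the lower input filter A/J over C57BL/6J had 1. Between the F1 alleles 2 regions were called under RLE, no filter, DESeq2 and with each library left out (2 to 2). When regions were summed 3 windows were called, and with the library as a block 0 regions. The parental minus allelic difference was called at 3 windows under RLE, DESeq2, summed regions and the replicate block, and at 2 to 3 with 1 library left out.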
